A study of Mus musculus with 2 samples.

Results

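The genes described here are 10 genes of glucose uptake, glycolysis and its regulation under low oxygen: *Slc2a1*, *Hk2*, *Pfkp*, *Aldoa*, *Pgk1*, *Eno1*, *Pkm*, *Ldha*, *Pdk1* and *Bnip3*. Their rows were found by symbol, and all 10 are among the 33696 genes of each library, on 11 rows because *Aldoa* stands on a second row with another identifier. They were measured by droplet single-cell RNA sequencing of digit stumps from ICR mice. Hindlimb digits 2 and 4 were amputated through the middle phalanx (P2) at postnatal day (PN) 3, and at PN7 the wound received a bead soaked either in FGF8 (500 ng/µl) or in 0.1% BSA as the control, with tissue taken 24 h later at PN8. Each condition is 1 library, made from 20 digits of 5 mice, males and females pooled, with the epithelium removed and the tissue digested in Liberase at 37 °C for 4 h, so there was no replicate between animals and no test between conditions. The FGF8 pool could not be restricted to digits that would later have formed a joint.

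Cells take up glucose through facilitative transporters, trap it by phosphorylation and break it down in the cytosol to pyruvate, which is then reduced to lactate or passed into the mitochondria. When oxygen is short, the hypoxia-inducible factor HIF-1 raises the transcription of many genes of this pathway, along with genes that restrain mitochondrial use of pyruvate. Cartilage has no blood vessels, and its cells are known for their dependence on glycolysis and on HIF-1.

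HIF-1 binds DNA at short elements with the core ACGTG or GCGTG, so the 250 bases before the annotated starts of the 10 genes were searched for both words on both strands. The windows of *Pgk1*, a textbook HIF-1 target, and *Bnip3*, which shared with *Ldha* the highest number of matches among the members, are shown because the genes lay apart in their ratios between the libraries in the largest cell group. The sequences are from RefSeq (GRCm38.p6 promoter table), placed on GRCm39 by their only exact match, written 5′ to 3′ in the direction of transcription, with matches in capitals.
Pgk1: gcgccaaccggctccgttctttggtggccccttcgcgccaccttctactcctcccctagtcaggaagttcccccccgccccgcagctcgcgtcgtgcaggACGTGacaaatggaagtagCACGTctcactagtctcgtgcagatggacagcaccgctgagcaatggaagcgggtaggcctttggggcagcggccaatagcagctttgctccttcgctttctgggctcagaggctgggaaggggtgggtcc
Bnip3: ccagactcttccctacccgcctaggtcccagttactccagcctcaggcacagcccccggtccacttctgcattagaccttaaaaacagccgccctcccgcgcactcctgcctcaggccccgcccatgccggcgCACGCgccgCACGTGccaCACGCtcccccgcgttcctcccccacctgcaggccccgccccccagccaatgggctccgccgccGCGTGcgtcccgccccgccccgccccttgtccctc
The windows are chrX:105230456-105230705 on the forward strand for *Pgk1*, with 0 bases in an annotated exon, and chr7:138511236-138511485 on the reverse strand for *Bnip3*, with 18 bases in an exon. *Pgk1* had 2 matches, and *Ldha* and *Bnip3* had 5 each, with the palindrome CACGTG counted once on each strand. The other annotated start of *Ldha* held 1 match in its window. *Pfkp* held 3, and *Slc2a1*, *Hk2* and *Eno1* at most 2. Every member had at least 1 match in some window, in 14 of the 17 windows of the 10 genes. Some members had several windows, and overlapping windows of *Aldoa* and of *Eno1* shared matches. The count of genes is therefore not matched to the shares of single windows that follow. Of all 32851 promoter windows of the same length, 38.6% held at least 1 match, 16.7% at least 2 and 1.01% at least 5. A match is a stretch of letters and not a measured binding site.

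The libraries held 7249 (FGF8) and 3703 (BSA) barcodes with 124889213 and 67739460 UMIs (unique molecular identifiers, each counting 1 captured transcript), of which 6715 and 3252 cells had 200 to 7500 genes and under 15% mitochondrial UMIs. Cells were clustered without the 10 genes or their pathway, and clusters were named from marker lists. The libraries were unlike in make-up: of the sex-called cells, 24.6% with FGF8 and 79.3% with BSA were female, and 40.9% and 24.4% of cells had a UMI of the proliferation genes *Mki67* or *Top2a*. The part of either in the values below was not tested; values within each sex and within each class of proliferation are given beside the pooled ones. The libraries shared 6 barcode sequences. Levels are given as CPM, the UMIs of a gene per 1000000 UMIs of all genes summed over the cells of a cluster, which needs no scaling for gene length because each transcript is counted at its 3′ end, with the FGF8 library before the BSA library, and ratios as log2 of FGF8 over BSA. All 95% intervals are exact and cover counting error only.

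The fibroblast-like cells were the largest group, with 3320 FGF8 and 1716 BSA cells led by *Mfap4*, *Crabp1*, *Igfbp2*, *Mfap5* and *Dpt*, the connective tissue cells of the stump. Their mean log2 fold over the other clusters was 3.28 for the fibroblast markers and 3.12 for the tenocyte markers, so the name is loose. In these cells the 10 genes together had 2278 CPM (95% interval 2266 to 2289) with FGF8 and 1413 CPM (1401 to 1426) with BSA, a log2 ratio of 0.69 (0.67 to 0.70). The ratio was above 0, with its interval, for 8 of the 10 genes, while 42.8% of all genes had a ratio above 0. These 8 run from glucose import to lactate production. The ratio was not above 0 for the regulator *Pdk1* and the mitophagy receptor *Bnip3*. A ratio of at least 1.5-fold higher with FGF8 was found for 7 of 10 members, against 8.94% of the 14231 genes with at least 100 UMIs. At 2-fold, 1 of 10 members passed, *Hk2*, against 3.33% of all genes. At least 1.5-fold lower with FGF8 were 0 of 10 members, against 11.4% of all genes. The median log2 ratio of the members was 0.62, and that of all 14231 genes was -0.07.

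Glucose enters through *Slc2a1* (GLUT1, ENSMUSG00000028645, chr4:118965908-118996365, forward strand), which had 26.4 CPM (25.2 to 27.6) with FGF8 and 17.6 CPM (16.2 to 19.0) with BSA, a log2 ratio of 0.59 (0.45 to 0.72). This gene lay on the 1.5-fold limit itself, just inside it. Hexokinase 2, *Hk2* (ENSMUSG00000000628, chr6:82699740-82751469, reverse strand), which phosphorylates glucose on entry, had 46.0 CPM (44.4 to 47.6) against 22.1 CPM (20.6 to 23.7), a log2 ratio of 1.05 (0.94 to 1.17). It was the member with the highest ratio. *Pfkp* (ENSMUSG00000021196, chr13:6629798-6698970, reverse strand), the platelet form of phosphofructokinase at the committed step, had 28.5 CPM (27.3 to 29.8) against 18.5 CPM (17.2 to 20.02), a log2 ratio of 0.62 (0.49 to 0.75). Each of these 3 genes of the entry and commitment steps had the higher level with FGF8.

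In the middle of the pathway, *Aldoa* (ENSMUSG00000030695, chr7:126393822-126399923, reverse strand) encodes aldolase, which splits the 6-carbon sugar. It had 398 CPM (394 to 403) with FGF8 and 341 CPM (335 to 347) with BSA, and its log2 ratio of 0.23 (0.19 to 0.26) was the lowest of the 8 above 0. The second row of that symbol, an overlapping gene on the same strand, held 26 and 13 UMIs and was not counted in. Phosphoglycerate kinase, *Pgk1* (ENSMUSG00000062070, chrX:105230706-105247305, forward strand), which makes the ATP of the pathway's upper payoff step, had 247 CPM (244 to 251) against 160 CPM (156 to 164), a log2 ratio of 0.63 (0.58 to 0.67). Enolase 1, *Eno1* (ENSMUSG00000063524, chr4:150321073-150337027, forward strand), had 278 CPM (274 to 282) against 147 CPM (143 to 151), a log2 ratio of 0.92 (0.88 to 0.96). Its near copy *Eno1b*, with which reads may be shared, was at 16.6 and 10.6 CPM. The *Eno1* value is uncertain by the shared reads, whose number was not measured.

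Pyruvate kinase, *Pkm* (ENSMUSG00000032294, chr9:59563364-59586663, forward strand), which forms pyruvate, had more UMIs than any other member in the FGF8 library. It had 662 CPM (656 to 668) with FGF8 and 339 CPM (333 to 345) with BSA, a log2 ratio of 0.97 (0.94 to 0.99). Counts of 3′ ends do not separate its spliced forms. Lactate dehydrogenase A, *Ldha* (ENSMUSG00000063229, chr7:46490899-46505061, forward strand), which reduces pyruvate to lactate, had 556 CPM (550 to 561) against 330 CPM (324 to 336), a log2 ratio of 0.75 (0.72 to 0.78).

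The 2 regulators lay apart from the enzymes. *Pdk1* (ENSMUSG00000006494, chr2:71703488-71734202, forward strand), a kinase that switches off pyruvate dehydrogenase and so keeps pyruvate out of the mitochondria, had 10.7 CPM (9.92 to 11.5) with FGF8 and 12.3 CPM (11.2 to 13.5) with BSA, a log2 ratio of -0.21 (-0.38 to -0.04). *Bnip3* (ENSMUSG00000078566, chr7:138490690-138511253, reverse strand), a hypoxia-induced receptor for the removal of mitochondria, had 24.9 CPM (23.7 to 26.1) against 25.7 CPM (24.03 to 27.4), a log2 ratio of -0.04 (-0.16 to 0.07). The levels of *Bnip3* overlapped between the libraries, and those of *Pdk1* overlapped within the intervals of the levels although the interval of the ratio lay below 0.

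**Figure D1:**
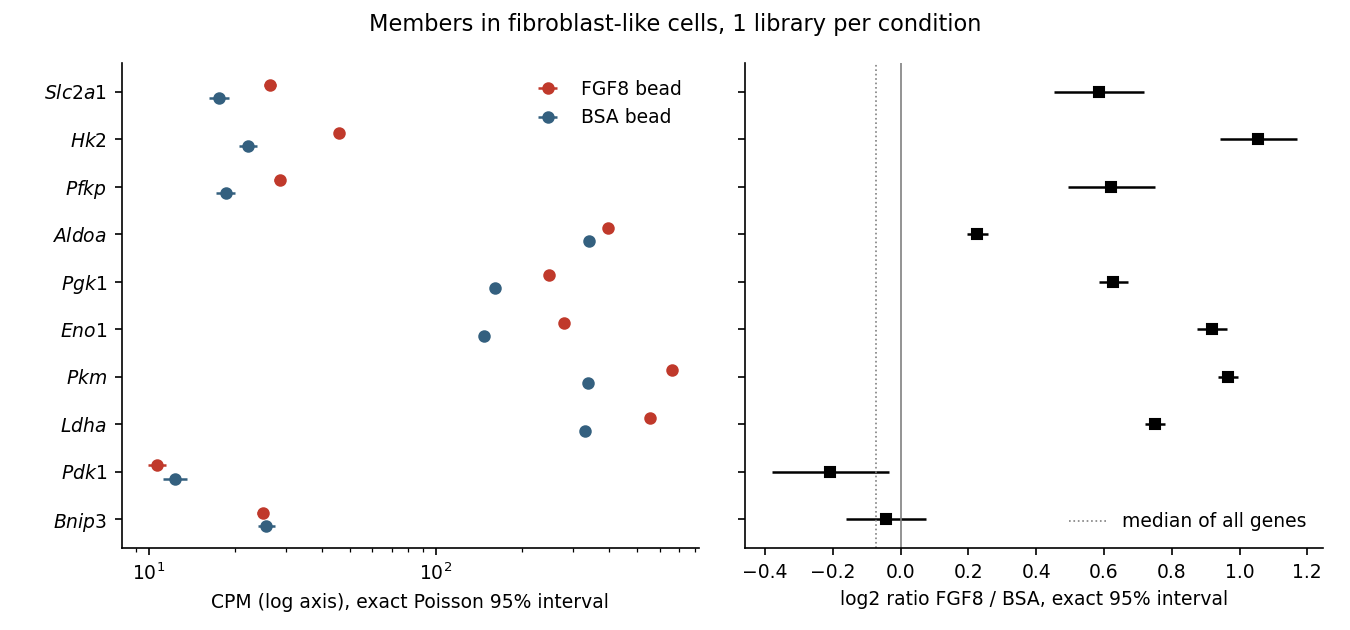
Level of each of the 10 genes in fibroblast-like cells (CPM, log axis) in the FGF8 and BSA libraries, 1 point per library with its exact 95% counting interval, and at the right the log2 ratio of FGF8 over BSA with its interval and the median of all genes as a dotted line. The points lie apart for the 8 genes from *Slc2a1* to *Ldha*, with the FGF8 point higher, and lie close together for *Pdk1* and *Bnip3*.

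Several steps have more than 1 enzyme form, and these were compared by step after their values had been seen. The neuronal-type transporter *Slc2a3* had 10.3 and 7.15 CPM, a log2 ratio of 0.53, close to that of *Slc2a1*. *Hk1*, the housekeeping hexokinase, had 30.04 and 25.1 CPM and a ratio of 0.26, so that *Hk2* had more UMIs than *Hk1* in the FGF8 library and fewer in the BSA library. For phosphofructokinase, the liver form *Pfkl* had 28.6 and 17.8 CPM (0.68), and the muscle form *Pfkm* had 7.19 and 9.51 CPM (-0.40). Below 0 beside a member above 0 at the same step were also the muscle enolase *Eno3* with 6.24 and 8.05 CPM (-0.37) and the heart lactate dehydrogenase *Ldhb* with 16.2 and 22.0 CPM (-0.44), while *Hk3* (16 and 9 UMIs), *Aldoc* (21 and 12 UMIs) and *Pklr* (1 and 1 UMI) were too low to place. The neuronal enolase *Eno2* had 14.3 and 11.8 CPM (0.27). Of the other pyruvate dehydrogenase kinases, *Pdk2* had 4.94 and 8.70 CPM (-0.82), *Pdk3* 25.1 and 27.0 CPM (-0.10), and *Pdk4* 3.18 and 2.62 CPM (0.28, interval -0.07 to 0.65). *Bnip3l*, the close relative of *Bnip3*, had 85.8 and 108 CPM and a ratio of -0.33.

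**Figure D2:**
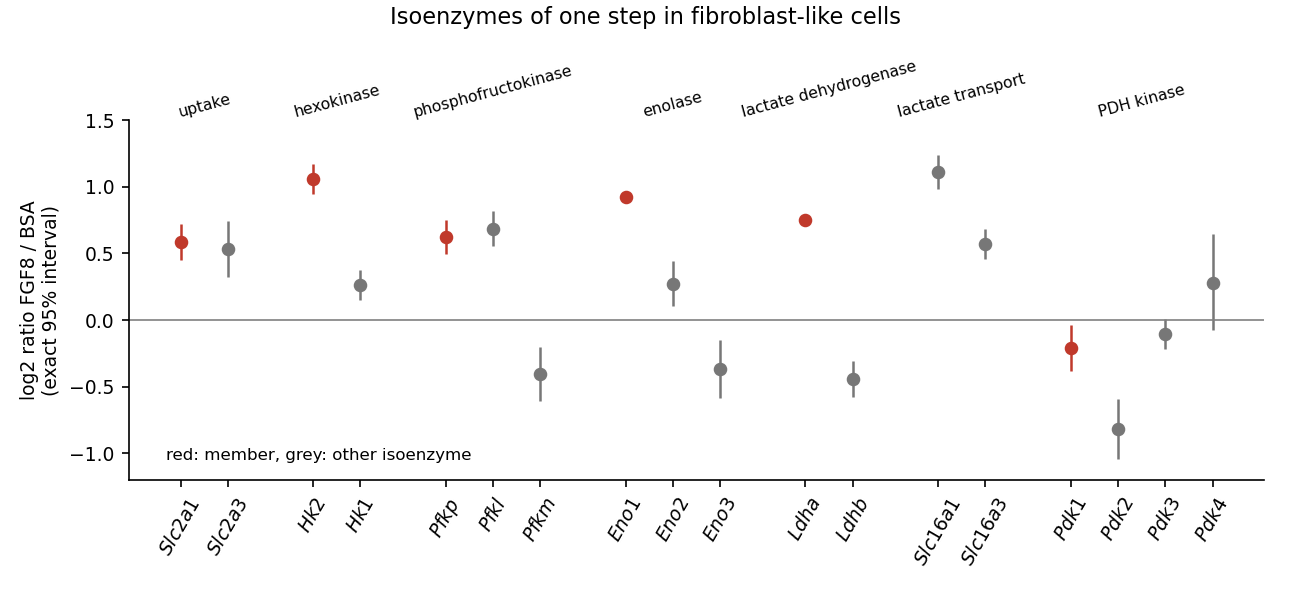
Log2 ratio of FGF8 over BSA in fibroblast-like cells for enzyme forms grouped by the step they catalyse, each with its exact 95% interval, members marked apart from the other forms. *Hk2* lies highest of the hexokinases at 1.05, and *Pfkm*, *Eno3* and *Ldhb* lie below 0 beside a member above 0.

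The rest of the pathway was read from fixed lists, beside all genes, of which 42.8% were above 0, 8.94% at least 1.5-fold higher and 11.4% at least 1.5-fold lower. Of 23 other glycolysis genes, 19 had at least 100 UMIs, and 13 of those had a ratio above 0 and 6 below, with 5 at least 1.5-fold higher, 2 at least 1.5-fold lower and a median of 0.27. *Gapdh*, the enzyme that oxidises the triose, had 1502 and 913 CPM (0.72), and the phosphoglycerate mutase *Pgam1* had a ratio of 0.68. The highest ratio was that of the muscle mutase *Pgam2*, at 3.24 and 0.704 CPM (2.20), from 226 and 25 UMIs. The lactate carriers *Slc16a1*, with 37.8 and 17.5 CPM (1.11), and *Slc16a3*, with 36.5 and 24.6 CPM (0.57), were both higher with FGF8. *Pfkfb1* (-0.75, from 61 and 52 UMIs) and *Pfkfb2* (-0.74), which set the level of an activator of phosphofructokinase, were the 2 past 1.5-fold in the other direction.

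Of 25 targets of HIF-1 outside glycolysis, 18 had a ratio above 0 and 7 below, beside 42.8% of all genes above 0. At least 1.5-fold higher were 3 and at least 1.5-fold lower 2, counts near the shares of all genes (8.94% and 11.4%). The median was 0.17, beside -0.07 over all genes. In female-called cells alone this median was 0.027. The 3 past 1.5-fold were *Angptl4*, a secreted regulator of lipid use, with 167 and 82.1 CPM (1.02), *Ankrd37* with 14.4 and 8.42 CPM (0.78), and *Vegfa*, the angiogenic factor, with 62.0 and 36.9 CPM (0.75). *Car9*, a carbonic anhydrase often used as a hypoxia marker, was low and had 1.45 and 2.31 CPM (-0.67). Of 9 genes of the HIF subunits and their oxygen sensors, 4 were above 0 and 5 below. *Hif1a* itself had 210 and 158 CPM (0.42), and *Epas1* (HIF-2α) 6.37 and 4.03 CPM (0.66). Among those below 0, the subunit *Arnt* had 42.1 and 55.8 CPM (-0.41) and *Arnt2* 4.196 and 6.53 CPM (-0.64). *Hif3a* had 1.56 and 2.90 CPM (-0.89), and the HIF inhibitor *Hif1an* 8.29 and 11.1 CPM (-0.42). HIF-1α is controlled mainly at the protein level, which was not measured.

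All 16 genes of the tricarboxylic acid cycle had a ratio above 0, with a median of 0.16 and none past 1.5-fold, led by *Idh3a* (0.57) and *Fh1* (0.45). The 12 genes of pyruvate dehydrogenase and its regulators were divided, 7 above and 5 below 0, with a median of 0.04 and 1 past 1.5-fold, *Pdk2*, which was lower. Of 7 pentose phosphate genes, 4 were above 0 and 3 below, with a median of 0.36 and *Tkt* (0.55) and *Pgd* (0.54) highest. That median ran from 0.08 to 0.51 under the alternatives given below. Of 15 genes on a stress list of immediate early and heat shock genes, 13 were above 0, 5 of them past 1.5-fold, with a median of 0.43. Their summed level was 4517 and 3301 CPM, with *Ier3* at 679 and 309 CPM (1.14) and the chaperone *Hsp90aa1* at 643 and 294 CPM (1.13). Whether dissociation or the bead lay behind these values was not tested. The part of the stress list in the values of the 10 genes was not tested either.

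Markers of other cell types in the fibroblast-like cells were also unequal between the libraries. The summed fibroblast markers had 10314 CPM with FGF8 and 19279 CPM with BSA, with 0 of 6 higher in FGF8. Summed neutrophil markers had 33.1 and 8.39 CPM, with 5 of 6 higher in FGF8. Tenocyte markers had 625 and 444 CPM, although 1 of 5 was higher in FGF8. Erythroid markers had 1433 and 1653 CPM, with 1 of 6 higher, and macrophage markers 16.4 and 15.4 CPM, with 4 of 7 higher. The part of these in the 10 genes' ratios was not tested.

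The same order was seen per cell. After each fibroblast-like cell was thinned to 5000 UMIs, which left out 386 FGF8 and 219 BSA cells with fewer, the median cell held 8 UMIs of the 10 genes with FGF8 (quartiles 4 and 13) and 5 with BSA (3 and 8). The upper tail was longer with FGF8, with a 90th percentile of 19 against 13 UMIs.

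**Figure D3:**
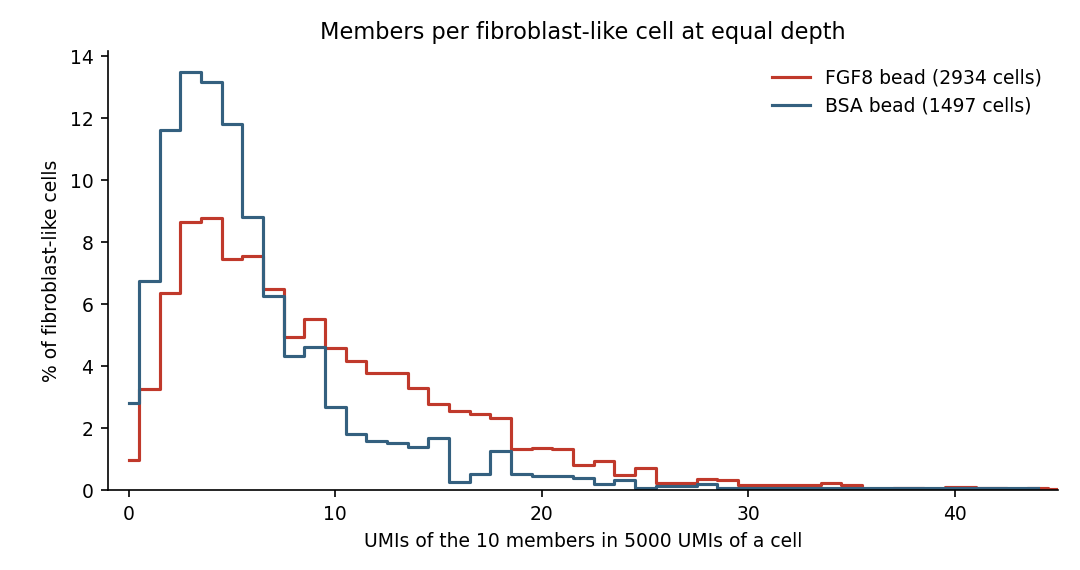
UMIs of the 10 genes per fibroblast-like cell after thinning every cell to 5000 UMIs (x axis), as a share of the cells of each library (y axis). The FGF8 distribution (2934 cells, median 8) is shifted to the right of the BSA distribution (1497 cells, median 5) and the 2 overlap over most of their range.

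The summed level was also compared within each sex. Female-called fibroblast-like cells (683 FGF8 and 1192 BSA) had 2321 and 1401 CPM, a log2 ratio of 0.73, and male-called cells (2128 and 296) had 2284 and 1425 CPM, a ratio of 0.68. Single members were less even. *Slc2a1* had 23.7 and 19.1 CPM in female-called cells (0.32) and 27.1 and 14.2 CPM in male-called cells (0.94), and *Bnip3* had 24.4 and 27.6 CPM (-0.18, interval -0.36 to 0.01) against 25.2 and 18.1 CPM (0.48, interval 0.21 to 0.76). The sign of the *Bnip3* ratio thus differed between the sexes, with no test of that difference.

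Cells were also divided by proliferation transcripts. *Mki67* or *Top2a* was found in 49.4% of FGF8 and 23.3% of BSA fibroblast-like cells, and cells with either had the higher summed level in both libraries. This did not hold for every member, as *Aldoa* was slightly lower in them in both. Without these transcripts the sum was 1755 and 1219 CPM (0.53), and with them 2563 and 1827 CPM (0.49). This division follows depth as well, since the median cell had 13965 and 17998 UMIs without these transcripts and 27255 and 28510 with them, and the part of either was not tested.

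Fibroblast-like cells were then divided into 6 subclusters, again without the 10 genes or their pathway. Subcluster 0, led by *Prg4*, *Ube2c*, *H1f5*, *Plk1*, *Mmp3* and *Ccnb1* and thus by a joint-surface gene, a matrix protease and mitotic genes, had the highest summed level in both libraries, 3027 and 2481 CPM (log2 ratio 0.29, interval 0.27 to 0.31). Its share of the fibroblast-like cells was 33.6% with FGF8 and 17.2% with BSA, and it held 114545 of 159061 FGF8 against 22508 of 50209 BSA UMIs of the 10 genes, and 87.3% and 60.1% of its cells had *Mki67* or *Top2a*. These shares depend on the genes clustered, which may differ between the libraries themselves. Inside it *Hk2* (0.68), *Eno1* (0.49), *Pkm* (0.44) and *Ldha* (0.37) had the highest ratios, *Aldoa* (0.00), *Pfkp* (0.03) and *Pgk1* (0.07) lay at or near 0, and *Slc2a1* (-0.18), *Pdk1* (-0.48) and *Bnip3* (-0.40) were below 0.

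The sum was above 0 in 6 of 6 subclusters, with an interval that included 0 in the smallest. Subcluster 1, led by *Nrg1*, had 1041 and 813 CPM (0.36), subcluster 2, led by *Lpl* and *Agtr2*, 1179 and 901 CPM (0.39), and subcluster 3, led by the tendon and cartilage matrix genes *Fmod* and *Comp*, 2093 and 1547 CPM (0.44). Subcluster 4, with few UMIs per cell, had 1166 and 659 CPM (0.82), and subcluster 5, with 48 and 22 cells, 967 and 953 CPM (0.02, interval -0.19 to 0.23). *Hk2* was higher with FGF8 in subclusters 0 to 4, with ratios of 0.68, 0.61, 0.93, 0.77 and 1.73, and was -0.46 in subcluster 5. When the BSA proportions of the subclusters were given to both libraries, the ratio of the sum over all fibroblast-like cells was 0.44 and the median of the members 0.36. Without subcluster 0, a choice made after seeing the data, the sum was 1392 and 1047 CPM (0.41), the median 0.44, and the highest ratios were those of *Hk2* (0.96), *Slc2a1* (0.69) and *Pkm* (0.68).

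**Figure D4:**
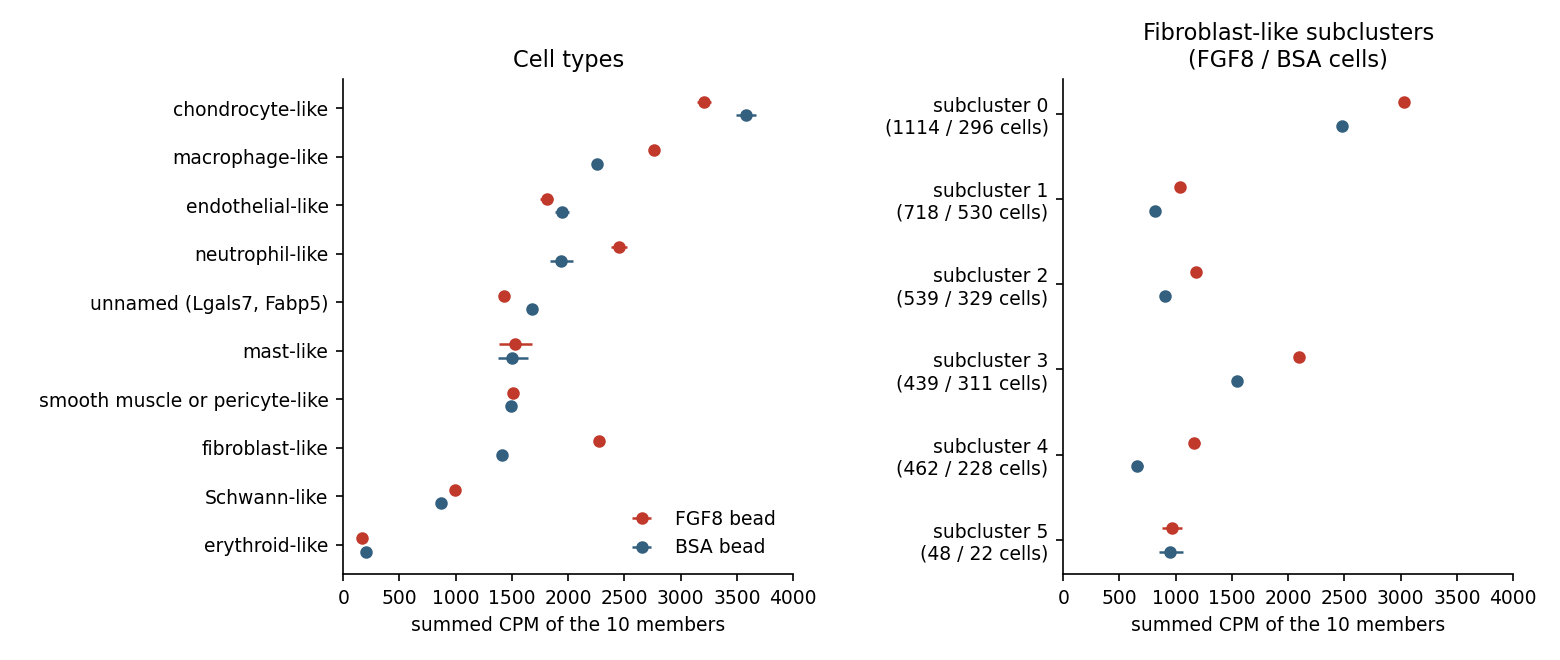
Summed level of the 10 genes (CPM) in each cell cluster and in each fibroblast-like subcluster, 1 point per library with its exact 95% counting interval. Chondrocyte-like cells lie highest and erythroid-like cells lowest in both libraries, and among the subclusters number 0 lies highest.

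Across the 9 clusters of the main clustering, chondrocyte-like cells had the highest summed level in both libraries, at 3207 and 3578 CPM, followed by macrophage-like cells at 2760 and 2257 CPM, and erythroid-like cells had the lowest, at 168 and 205 CPM. Neutrophil-like cells had 2450 and 1938 CPM, mast-like cells 1525 and 1503 CPM, smooth muscle or pericyte-like cells 1508 and 1493 CPM, and Schwann-like cells 998 and 867 CPM. The place of the fibroblast-like cells in this order differed between the libraries: at 2278 CPM they stood above mast-like and smooth muscle or pericyte-like cells with FGF8, and at 1413 CPM they stood below smooth muscle or pericyte-like cells with BSA, where their interval of 1401 to 1426 CPM lay inside that of mast-like cells. The intervals of mast-like (1385 to 1674 and 1374 to 1641 CPM) and smooth muscle or pericyte-like cells (1469 to 1549 and 1449 to 1539 CPM) overlapped in each library, so these neighbours were not separated, while those of chondrocyte-like and macrophage-like cells did not overlap in either. *Hk2*, *Pgk1*, *Eno1*, *Ldha*, *Pdk1* and *Bnip3* were highest in chondrocyte-like cells in both libraries, but not always beyond the counting error. The intervals of *Hk2* overlapped those of neutrophil-like cells in both libraries (84.1 and 72.0 CPM with FGF8, 103 and 70.1 CPM with BSA), as did those of *Pdk1* (22.1 and 21.4 CPM, 22.4 and 17.9 CPM), which also overlapped those of other clusters, and *Ldha* with FGF8 overlapped mast-like cells (686 and 586 CPM). *Aldoa* was highest in macrophage-like cells in both, at 649 and 589 CPM. *Slc2a1* was high in both neutrophil-like (161 and 171 CPM) and chondrocyte-like cells (141 and 199 CPM), whose intervals overlapped in each library, so neither stood first. *Pkm* was highest in neutrophil-like cells with FGF8 (849 CPM), and with BSA chondrocyte-like (603 CPM), neutrophil-like (601 CPM) and macrophage-like cells (590.1 CPM) were not separated. *Bnip3* was the member most concentrated in chondrocyte-like cells, at 99.7 and 186 CPM, beside 42.9 and 40.2 CPM in neutrophil-like cells, the next in order.

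The ratio of the sum between the libraries was above 0 in 5 of the 8 clusters other than fibroblast-like cells. It was 0.34 (0.25 to 0.43) in neutrophil-like, 0.29 (0.26 to 0.32) in macrophage-like and 0.20 (0.12 to 0.29) in Schwann-like cells. The macrophage-like ratio stayed between 0.28 and 0.41 under the alternatives, whereas the neutrophil-like ratio was -0.04 with cells thinned to 5000 UMIs and the Schwann-like ratio -0.01 with cells thinned to 2000 UMIs. Only 38 of 538 FGF8 neutrophil-like cells, and fewer BSA cells, had at least 5000 UMIs, so the value of -0.04 rests on a small, deep subset. In mast-like cells it was 0.02 (-0.17 to 0.21) and in smooth muscle or pericyte-like cells 0.01 (-0.04 to 0.07), intervals that include 0. It was below 0 in chondrocyte-like cells, at -0.16 (-0.20 to -0.11), in erythroid-like cells, at -0.29 (-0.48 to -0.09), and in an unnamed cluster led by *Lgals7*, *Fabp5* and *S100a16*, at -0.23 (-0.28 to -0.19). The direction in erythroid-like cells was not stable: it ran from -1.54 in female-called cells to 0.47 with no filter on cells, and these cells fell into 2 clusters with ratios of 2.16 and -0.89 at a resolution of 0.3. Endothelial-like cells, taken from the clustering at that resolution because the main clustering did not separate them, had -0.11 (-0.17 to -0.04). The unnamed cluster scored highest for keratinocyte markers (6.825) and next for endothelial markers (5.85), with no listed marker among its leading genes. Endothelial-like cells may lie partly within it, so its ratios and theirs may share cells. The median ratio of all genes was 0.04 in macrophage-like, -0.09 in chondrocyte-like and -0.39 in erythroid-like cells. The difference between cell types was not tested, as each rests on 1 library per condition.

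**Figure D5:**
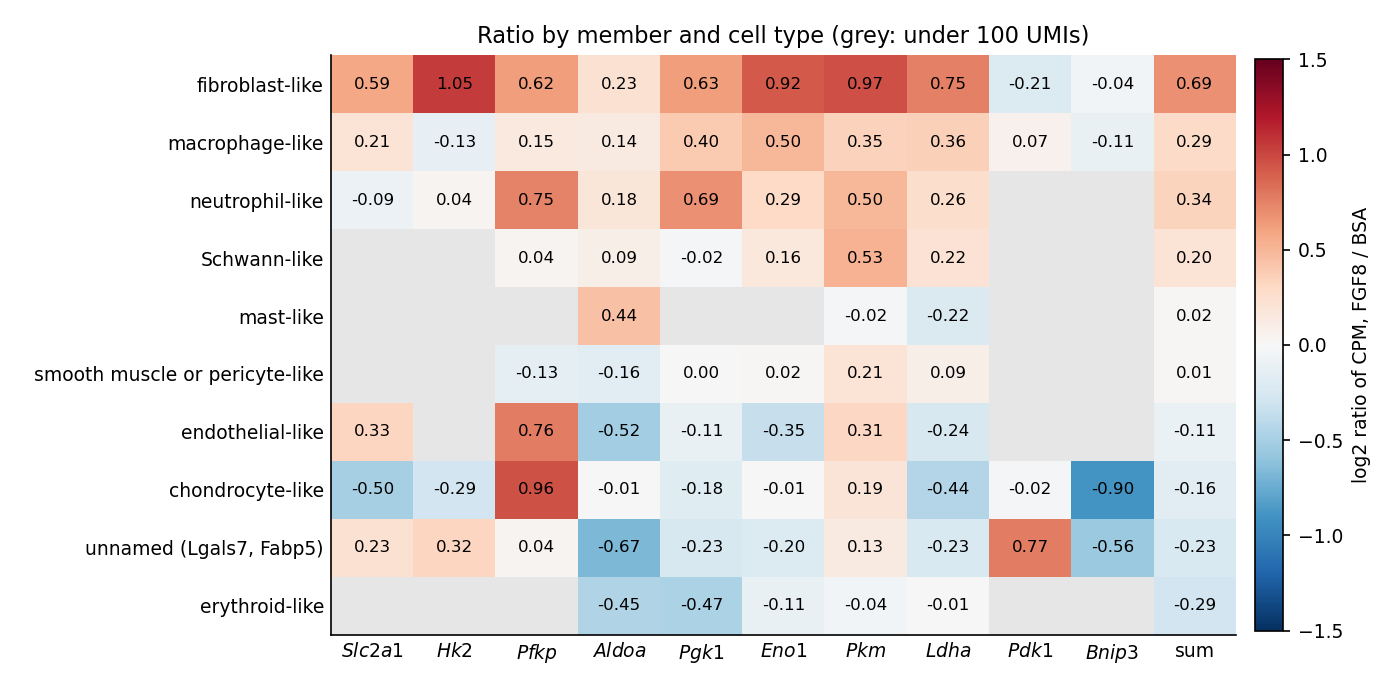
Log2 ratio of FGF8 over BSA for each of the 10 genes and their sum (columns) in each cell cluster (rows), as colour and printed value, with grey where a gene had under 100 UMIs. Fibroblast-like cells have 8 of 10 genes above 0, beside 42.8% of all genes, and chondrocyte-like cells 2 of 10, beside 41.1%.

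In chondrocyte-like cells, 143 with FGF8 and 66 with BSA, led by *Snorc*, *Col2a1*, *Matn1*, *Col9a1* and *Col11a2*, the ratio was above 0 for 2 of 10 members and for 41.1% of all genes. The median of the members was -0.10, and that of all genes was -0.09. At least 1.5-fold higher was 1 of 10 members, against 9.69% of the 5654 genes with at least 100 UMIs, and at least 1.5-fold lower was 1 of 10, against 12.3%. The higher was *Pfkp*, with 59.8 and 30.9 CPM (0.96, interval 0.50 to 1.43). The lower was *Bnip3*, with 320 and 307 UMIs, 99.7 CPM (89.1 to 111) against 186 CPM (166 to 208), a ratio of -0.90 (-1.13 to -0.67). *Slc2a1* had 141 and 199 CPM (-0.50, interval -0.71 to -0.29) and *Ldha* 686 and 932 CPM (-0.44, interval -0.54 to -0.35), while *Aldoa* with 522 and 526 CPM and *Eno1* with 376 and 379 CPM were level within their intervals (both -0.01).

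The chondrocyte-like values rest on few cells and were uneven among them. The *Bnip3* ratio was -1.30 in female-called cells (88.5 and 218 CPM), -0.21 in male-called cells (112 and 130 CPM) and -0.11 when cells needed 500 to 6000 genes and under 10% mitochondrial UMIs. The FGF8 chondrocyte-like cells also carried more transcripts of blood cells than the BSA ones, with summed erythroid markers at 2346 and 131 CPM, neutrophil markers at 161 and 3.0 CPM and macrophage markers at 123 and 9.1 CPM, and the summed chondrocyte markers were at 33754 and 43590 CPM. The stress list was lower there with FGF8, opposite to the fibroblast-like cells, with 14 of 15 genes below 0, 10 at least 1.5-fold lower and a median of -0.94. The part of these differences in the 10 genes' ratios was not tested.

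The members were also compared with each other over cell types. Over the 18 points of 9 clusters in 2 libraries, Pearson's correlation of log2(CPM + 1) between members ranged from 0.33 (*Pfkp* and *Bnip3*) to 0.95 (*Pgk1* and *Eno1*), with 0.94 for *Slc2a1* and *Hk2*. Clusters of 1 library share its depth and preparation, so these are descriptions. The erythroid-like points, with sums of 168 and 205 CPM, lay far below the next lowest, Schwann-like cells at 998 and 867 CPM. Correlations without them, or between pairs of other genes, were not computed. The values therefore do not show that the 10 genes vary together more than other genes do. Of 10728 other genes, those most like the sum of the 10 over the same points were *Clint1* (0.964), *Map7d1* (0.962), *Gapdh* (0.959), *Map2k3* (0.958) and *Pacsin2* (0.957), of which *Gapdh* is a glycolysis gene itself.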

How the data were processed

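Libraries were made with the Chromium 3′ v3.1 chemistry. Per the labels and the submitters' processing notes, the authors made the deposited matrices of raw UMI counts per gene and cell with Cell Ranger 9.0.0; the notes name both GRCm39 and mm10, and the study's methods give GRCm39. Cells with more than 200 and fewer than 7500 genes and under 15% mitochondrial UMIs were kept (6715 FGF8, 3252 BSA). No doublet caller was run. Cells were normalized with sctransform 0.4.2, integrated and clustered in Seurat 5.3.0 (R 4.3.3) on 2955 variable features, leaving out the 10 genes and their pathway lists. Counts were summed by library and cluster; ratios carry exact conditional binomial intervals and levels exact Poisson intervals (scipy 1.17.1), checked on simulated data. With 1 library per condition, no test between conditions was made. Ratios over all genes used genes with at least 100 UMIs in both libraries together. Sex was called per cell, and cells were thinned to 2000 or 5000 UMIs, as alternatives. Members were fixed by symbol. List genes were named mainly from those with the largest ratios in either direction and the same sign in both sexes. Some other list genes were named beside them, and not every gene past 1.5-fold was named. Enzyme forms were named by step after their values were seen. The members and lists were chosen with earlier results of these data known. Gene positions are from GENCODE vM39 (GRCm39).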

Additional observations from a re-analysis of the deposited data

Results flagged for a closer look

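Ratios in other clusters that lay, with their intervals, on the other side of 0 from those in fibroblast-like cells were picked out; each rests on 1 library per condition, and the difference between clusters was not tested. In chondrocyte-like cells the log2 ratio of FGF8 over BSA was -0.50 for *Slc2a1* (0.59 in fibroblast-like cells), -0.29 for *Hk2* (1.05), -0.18 for *Pgk1* (0.63), -0.44 for *Ldha* (0.75) and -0.16 for the sum of the 10 genes (0.69). Under the alternatives *Hk2* ran there from -0.78 to 0.10 and *Pgk1* from -0.30 to 0.05, so their directions were not kept. *Slc2a1* (-1.07 to -0.21) and *Ldha* (-0.61 to -0.19) stayed below 0. In the unnamed cluster led by *Lgals7* and *Fabp5* the log2 ratio was -0.67 for *Aldoa* (0.23 in fibroblast-like cells), -0.23 for *Pgk1*, -0.20 for *Eno1* (0.92), -0.23 for *Ldha* and -0.23 for the sum. *Pdk1* stood the other way round, at 0.77 in the unnamed cluster and -0.21 in fibroblast-like cells. In endothelial-like cells, some of which may also be counted in the unnamed cluster, it was -0.35 for *Eno1*, -0.24 for *Ldha* and -0.11 for the sum. In erythroid-like cells it was -0.29 for the sum, beside -0.39 for the median gene of those cells, and it ran from -1.54 to 0.47 under the alternatives.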

How the results depend on the processing

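In fibroblast-like cells the log2 ratio of the summed 10 genes (0.69) was above 0 under every alternative run. It was 0.74 with 500 to 6000 genes and under 10% mitochondrial UMIs per cell, 0.62 with every cell weighted equally, 0.61 and 0.65 with cells thinned to 2000 and 5000 UMIs, 0.73 in female-called cells, 0.53 in cells without *Mki67* and *Top2a*, 0.64 with all variable features clustered, 0.65 without integration, 0.44 with the BSA subcluster proportions, 0.76 relative to the median gene and 0.41 without subcluster 0, the last chosen after seeing the data. The members past 1.5-fold, 7 of 10, were 4 when thinned to 2000 UMIs, 4 without *Mki67* and *Top2a*, 3 with the BSA proportions and 3 without subcluster 0; shares of all genes were not computed in these cells. The median of the members stayed between 0.36 and 0.78. The median of the other hypoxia targets (0.17) was 0.027 in female-called cells. Of the other clusters, 5 of 8 had a summed ratio above 0, against 2 and 3 when thinned to 2000 and 5000 UMIs and 3 in female-called cells. The neutrophil-like ratio ran from -0.04 to 0.41, the Schwann-like from -0.01 to 0.38, the mast-like from -0.49 to 1.48 and the erythroid-like from -1.54 to 0.47, so their directions were not kept. The lowest neutrophil-like value, at 5000 UMIs, rests on 38 of 538 FGF8 cells and fewer BSA cells. Subclusters above 0, 6 of 6, were 3 of 3 at resolution 0.1, 7 of 8 at resolution 0.3 and 5 of 6 in male-called cells. In chondrocyte-like cells, read under the alternatives after seeing the data, the *Bnip3* ratio ran from -1.30 to -0.11 and that of the sum from -0.26 to -0.03. No paired analysis was possible because each condition is 1 library. Intervals and levels reflect counting error, and differences between animals cannot be told apart from the treatment.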

Other observations

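Further values of single members in the smaller clusters are given here, with no test between clusters. In neutrophil-like cells *Pfkp* had 125 CPM with FGF8 and 74.5 CPM with BSA (log2 ratio 0.75, interval 0.30 to 1.22), *Pgk1* had 182 and 113 CPM (0.69, interval 0.32 to 1.07) and *Pkm* had 849 and 601 CPM (0.50, interval 0.34 to 0.66), while *Slc2a1*, with 161 and 171 CPM, had a ratio of -0.09 (-0.41 to 0.23). In endothelial-like cells *Pdk1* had 48 and 16 UMIs, 22.3 and 8.96 CPM (1.32, interval 0.47 to 2.23), and *Pfkp* had 60.9 and 35.8 CPM (0.76, interval 0.32 to 1.22), beside *Aldoa* with 399 and 570 CPM (-0.52, interval -0.65 to -0.38). *Hk2* was near absent from endothelial-like cells, with 7 and 5 UMIs. In Schwann-like cells *Hk2* had 29 and 6 UMIs, 8.97 and 2.82 CPM (1.67, interval 0.37 to 3.23). *Bnip3* had 0 and 1 UMI in mast-like cells, so no level could be compared there at this depth.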
